A study of Mus musculus with 20 samples.

Results

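The stellate cell and myofibroblast markers described here are a list of 10 genes: Pdgfrb, Pdgfra, Acta2, Des, Lrat, Reln, Hgf, Rgs5, Tagln and Vim. A feature was found for 9 of them among the 19505 genes that carried a single symbol in the array annotation, with the brightest feature taken for a symbol that had several. Pdgfra was not analysed here. The livers came from mice with the genotype labels OGTL WT and OGTL KO at ages of 4 and 8 weeks, which gave the groups 4w-WT, 4w-KO, 8w-WT and 8w-KO with 5 mice and 5 Clariom S Mouse arrays each. OGT is O-GlcNAc transferase, the enzyme that attaches a single sugar, N-acetylglucosamine, to nuclear and cytoplasmic proteins. The promoter or Cre used to delete the gene, the cells that lost it and the sex of the mice are not given in the sources that were used. Values are deposited log2 signals, so a difference of 1 is a 2-fold difference of signal. Each array read RNA from a piece of powdered whole liver, and in such bulk samples fewer cells of a type and less RNA per cell cannot be told apart.

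Hepatic stellate cells lie between the hepatocytes and the sinusoidal endothelium. In the resting state they store vitamin A as retinyl esters and make hepatocyte growth factor and reelin. In injured liver they can turn into contractile, collagen-producing myofibroblasts, a change in which signalling through the PDGF receptors drives division and migration and TGF-beta drives matrix production. Pericytes and vascular smooth muscle cells share several of these markers, among them Pdgfrb, Rgs5, Acta2 and Tagln, and Vim is made by most cells of mesenchymal origin.

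The mean Ogt level was 9.57 in 4w-WT and 8.14 in 4w-KO, a fall of 1.43 on the log2 scale (adjusted p = 8.82e-05). At 8 weeks it was 10.08 and 9.81, a difference of -0.27 that did not pass (adjusted p = 0.529), and the groups overlapped. The 8-week group is therefore spoken of as the arrays labelled 8w-KO. Where the Ogt feature lies relative to the deleted part of the gene was not used here. The arrays 4w-WT4, 4w-KO4 and 4w-KO5 carried skeletal muscle RNA: the muscle actin gene Acta1 was at 15.89, 15.04 and 15.43 there and at 4.24 to 6.11 on the other 17 arrays. Of those 17 arrays, 4w-WT3 had the highest Acta1 and the highest mean over 16 skeletal muscle genes, 6.09 against 4.72 to 5.20, and it was kept. Each comparison is therefore given for 20 arrays. For the markers, and for the counts of related genes that are given at 4 and 8 weeks, the result for 17 arrays without the 3 muscle-bearing ones is added where a call moved. All 9 measured hepatocyte markers were above background in every group. The arrays were numbered group by group in their titles, and the effects of that order and of the groups cannot be told apart.

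At 4 weeks none of the 9 measured markers passed the limma test between KO and WT (adjusted p below 0.05), against 10.2% of all genes (4.7% higher and 5.48% lower). At an unadjusted p below 0.05 there was 1 higher marker, Tagln, and 1 lower marker, Reln, and neither remained without the muscle-bearing arrays, when again no marker passed (8.56% of all genes). At 8 weeks Pdgfrb, Vim and Hgf were higher in the arrays labelled 8w-KO, and none of the markers was lower. Over all genes, 4.94% were higher and 1.65% lower. The median difference of the 9 markers was 0.88, beside -0.04 over all genes. The markers and the lists of related genes were chosen with earlier results of these data known, so such contrasts are descriptions only. The KO effect differed between the ages for Pdgfrb among the 9 markers (3.05% of all genes differed), and without the muscle-bearing arrays also for Hgf and Vim (2.65% of all genes). With the medians of the arrays set equal, the split of all genes at 8 weeks moved from 963 higher and 321 lower to 801 and 856, at 4 weeks from 917 and 1068 to 703 and 1414, and between the ages in WT from 723 and 1021 to 971 and 898. The median over all genes at 8 weeks then lay at -0.15, and the same number of markers passed in every comparison.

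**Figure D1:**
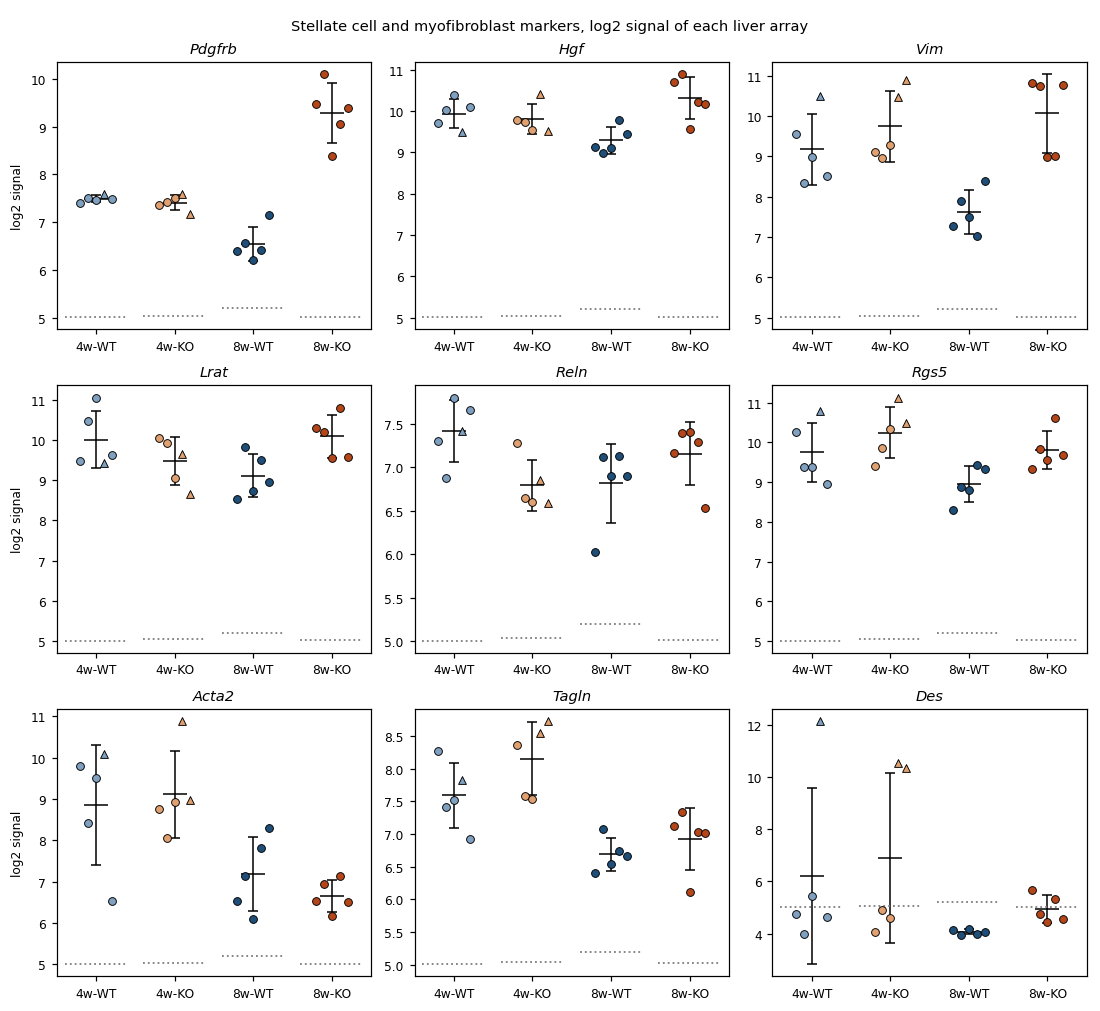
Log2 signal (y axis, a separate scale for each gene) of the 9 measured markers on each of the 20 liver arrays, by group (x axis); circles are arrays, triangles are the muscle-bearing arrays 4w-WT4, 4w-KO4 and 4w-KO5, bars with whiskers are the mean and SD of 5 arrays, and dotted lines are the background level of the group. The 5 arrays labelled 8w-KO lie above all other arrays for Pdgfrb, from 8.39 to 10.10, and the high Des values are those of the triangles.

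Pdgfrb encodes the beta receptor for platelet-derived growth factor, which marks stellate cells and pericytes. Its log2 signal was 7.41, 7.51, 7.47, 7.60 and 7.49 in 4w-WT and 7.37, 7.43, 7.50, 7.58 and 7.18 in 4w-KO. It was 6.39, 6.56, 6.21, 6.42 and 7.15 in 8w-WT and 9.47, 10.10, 8.39, 9.06 and 9.39 in the arrays labelled 8w-KO. The 4-week arrays all lay between 7.18 and 7.60, the 8w-WT arrays all lay below them, and the 8w-KO arrays all lay above every other array. The group means were 7.50 ± 0.07, 7.41 ± 0.15, 6.55 ± 0.36 and 9.28 ± 0.62 (SD, n = 5 each). Pdgfrb was 6.66-fold higher at 8 weeks in KO than in WT, a difference of 2.74 (SE 0.22, 95% confidence interval 2.28 to 3.19, adjusted p = 1.71e-07, exact permutation p = 0.00794, the smallest that 5 against 5 arrays allow). By size it ranked 44 among all genes with a positive difference. Over all genes, 4.13% were higher at 8 weeks with no overlap of the groups. The ages did not overlap for Pdgfrb either, lower at 8 weeks in WT as 5.38% of all genes were and higher in KO as 4.79% were.

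The Pdgfrb difference at 4 weeks was -0.08 (95% confidence interval -0.54 to 0.37, adjusted p = 0.883), and the KO effect was 2.82 larger at 8 weeks than at 4 weeks (SE 0.31, adjusted p = 5.41e-05). Between 4 and 8 weeks Pdgfrb fell by 0.95 in WT (adjusted p = 7.26e-03) and rose by 1.87 in the arrays labelled KO (adjusted p = 6.01e-06). The genotype and age comparisons share arrays, so these values are not independent of each other. In order of level the groups stood as 8w-KO, the 4-week groups, then 8w-WT, and 4w-WT and 4w-KO did not differ beyond their spread. All of these calls held when any single array or the muscle-bearing arrays were left out.

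The 4 PDGF ligand genes were all measured. Pdgfc and Pdgfd, whose products are secreted in a latent form and cut to become active, were higher at 8 weeks, while Pdgfa and Pdgfb did not pass. At that age 4.94% of all genes were higher and 1.65% lower. For Pdgfd, a ligand of the beta receptor, the signal was 4.75, 5.46, 5.44, 5.36 and 5.72 in 8w-WT and 8.57, 8.87, 6.47, 7.45 and 9.94 in the arrays labelled 8w-KO. All 8w-KO arrays lay above all 8w-WT arrays, with a difference of 2.91 (adjusted p = 2.46e-04), and the KO effect was 2.63 larger than at 4 weeks (adjusted p = 0.0259). That difference of effects no longer passed when 8w-WT1, 8w-KO1 or 8w-KO2 was left out. For Pdgfc, a ligand of the alpha receptor, the signal was 5.65, 7.37, 7.42, 7.01 and 8.08 in 8w-WT and 9.46, 10.54, 8.02, 9.09 and 10.44 in the arrays labelled 8w-KO. The groups overlapped by 1 array, 8w-KO3, and the difference was 2.40 (adjusted p = 1.56e-03). Pdgfa differed by 0.67 (adjusted p = 0.0507, and 9.77e-03 without the muscle-bearing arrays), with all 8w-KO arrays at 7.96 to 8.23 and all 8w-WT arrays at 7.02 to 7.86. Pdgfb, the main ligand of the beta receptor, was not above background in any group. At 4 weeks none of the 4 ligands passed, with 1 higher at an unadjusted p below 0.05. Without 4w-KO5, 1 ligand was higher there.

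**Figure D2:**
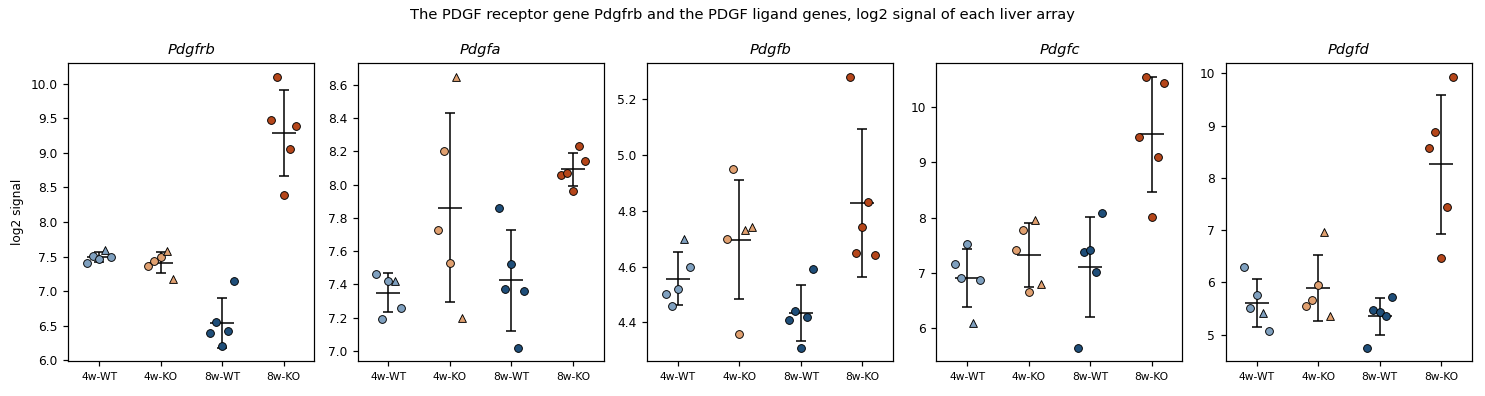
Log2 signal (y axis, a separate scale for each gene) of the receptor gene Pdgfrb and of the 4 PDGF ligand genes on each of the 20 arrays, by group (x axis); circles are arrays, triangles are the muscle-bearing arrays, and bars with whiskers are the mean and SD of 5 arrays. For Pdgfrb, Pdgfa, Pdgfb and Pdgfd the 8w-KO arrays lie above all 8w-WT arrays, as for 4.13% of all genes, and Pdgfb was not above background in any group. For Pdgfc the array 8w-KO3, at 8.02, falls just below the highest 8w-WT array at 8.08.

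Hgf encodes hepatocyte growth factor, which stellate cells secrete and which acts on hepatocytes through the receptor MET. Its signal was 9.70, 10.02, 10.39, 9.48 and 10.09 in 4w-WT and 9.78, 9.74, 9.54, 10.41 and 9.52 in 4w-KO. It was 9.13, 8.99, 9.10, 9.79 and 9.45 in 8w-WT and 10.69, 10.89, 9.57, 10.22 and 10.17 in the arrays labelled 8w-KO. At 8 weeks only 8w-KO3 fell within the WT range. Hgf was 2.02-fold higher in KO at 8 weeks, a difference of 1.02 (SE 0.23, 95% confidence interval 0.53 to 1.50, adjusted p = 8.82e-03, exact permutation p = 0.0159). At 4 weeks the difference was -0.14 (adjusted p = 0.807). The KO effect was 1.15 larger at 8 weeks (adjusted p = 0.0626), and 1.38 larger without the muscle-bearing arrays (adjusted p = 0.0352). It also passed when 4w-WT4, 8w-WT4, 4w-KO4 or 8w-KO3 alone was left out. Between 4 and 8 weeks the differences were -0.64 in WT (adjusted p = 0.0936) and 0.51 in KO (adjusted p = 0.165), and the second passed without 8w-KO3, at 0.69 (adjusted p = 0.0413).

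Met, the gene of that receptor, did not pass at either age. Its signal was 13.22, 12.22, 12.26, 12.28 and 12.53 in 8w-WT and between 11.70 and 12.26 in the arrays labelled 8w-KO, a difference of -0.42 (adjusted p = 0.169). The array 8w-WT1 lay the furthest above the highest 8w-KO array, and 8w-WT4 and 8w-WT5 lay above it by less. The HGF and MET axis holds the receptor, activating proteases and their inhibitors. Of its 11 genes, 4 were higher and 1 was lower at 8 weeks (4.94% and 1.65% of all genes). The largest difference among them was that of Spint1, which encodes an inhibitor of HGF-activating proteases and is typical of epithelial cells, with a mean of 5.59 in 8w-WT and 7.58 in 8w-KO (difference 1.99, adjusted p = 1.34e-03). St14, for the protease matriptase, was higher too, from a WT mean that was not above background, and Plau and Plaur passed with neither group above background. Hpn, for the hepatocyte protease hepsin, was lower by 0.81 (adjusted p = 7.88e-03). Without 8w-KO5, 2 genes instead of 4 were higher. At 4 weeks 3 genes were lower and none was higher (5.48% and 4.7% of all genes). Lower were Hpn by 1.06, Hgfac, for the HGF activator, by 1.07 (adjusted p = 4.53e-03) and F12, for coagulation factor XII, by 0.67 (adjusted p = 0.0197). The fits that left out 1 array gave 2 to 4 lower and 0 to 1 higher genes at 4 weeks. Without the muscle-bearing arrays F12 no longer passed (adjusted p = 0.0842).

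Lrat encodes lecithin retinol acyltransferase, the enzyme that makes the stored retinyl esters and a marker of the resting stellate cell. Its signal was 9.49, 10.47, 11.06, 9.43 and 9.63 in 4w-WT and 10.05, 9.94, 9.07, 9.66 and 8.65 in 4w-KO. It was 8.54, 9.83, 8.74, 9.50 and 8.95 in 8w-WT and 10.31, 10.20, 9.56, 10.81 and 9.59 in the arrays labelled 8w-KO. The 8-week groups overlapped, and the lowest 8w-KO arrays lay below the highest 8w-WT array. Lrat differed by 0.98 at 8 weeks (95% confidence interval 0.27 to 1.69, adjusted p = 0.0950, exact permutation p = 0.0317) and by -0.54 at 4 weeks (adjusted p = 0.387), so neither passed over all genes. The difference between the effects was 1.52 (adjusted p = 0.0945). No array left out brought an Lrat comparison past the threshold.

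Of 18 other measured genes of retinoid storage and handling, 1 was higher and none was lower at 8 weeks, with a median difference of -0.10, a share near the 4.94% and 1.65% of all genes. The higher gene was Aldh1a2, for a retinaldehyde dehydrogenase that makes retinoic acid, with means of 5.45 in 8w-WT and 6.87 in 8w-KO (difference 1.43, adjusted p = 1.39e-03). Without the muscle-bearing arrays Lipe, for hormone-sensitive lipase, was lower by 0.86 at 8 weeks as well (adjusted p = 0.0420, with 5.37% of all genes higher and 1.79% lower). At 4 weeks the calls in this list were Rdh11 and Dhrs3, for enzymes that interconvert retinol and retinaldehyde, and both were lower. Rdh11 fell by 1.98 (means 12.51 and 10.54, adjusted p = 9.39e-05) and Dhrs3 fell by 0.86 (adjusted p = 0.0299). Leaving out 4w-WT2, 4w-WT3, 4w-KO1, 4w-KO2, 4w-KO3 or 4w-KO4 left 1 lower gene in the list. Without all 3 muscle-bearing arrays 4 genes were lower there, with Dgat1 (-0.80, adjusted p = 0.0417), for an acyltransferase, and Lipe (-1.04, adjusted p = 0.0395) beside those 2. Lipe and Dgat1 were named after their values had been seen.

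Reln encodes reelin, a secreted glycoprotein that in liver is made by stellate cells. Its signal was 7.30, 6.88, 7.80, 7.42 and 7.66 in 4w-WT and 7.28, 6.65, 6.60, 6.85 and 6.59 in 4w-KO. It was 6.03, 7.12, 6.90, 7.13 and 6.90 in 8w-WT and 7.16, 7.39, 7.40, 7.29 and 6.53 in the arrays labelled 8w-KO. The groups overlapped at both ages, and the 4w-KO arrays other than 4w-KO1 lay below the lowest 4w-WT array. Reln differed by -0.62 at 4 weeks (95% confidence interval -1.08 to -0.16, adjusted p = 0.0837, exact permutation p = 0.0159) and by 0.34 at 8 weeks (adjusted p = 0.437). The 4-week difference passed when 4w-WT2, 8w-WT1 or 4w-KO1 was left out, with adjusted p from 0.0408 to 0.0466, while without the muscle-bearing arrays its adjusted p was 0.245. Of the reelin receptor genes, Vldlr differed by -0.12 at 8 weeks (adjusted p = 0.843) and Lrp8 was not above background in any group. The adaptor gene Dab1 was higher at 8 weeks (means 4.52, not above background, and 5.55, adjusted p = 0.0151), and this call was lost without 8w-WT3 or 8w-KO2. At 4 weeks Dab1 did not pass with 20 or with 17 arrays. It ran from 4.39 to 4.78 in 4w-WT, all under the background of 5.01, and from 4.84 to 5.79 in 4w-KO.

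Rgs5, for a regulator of G-protein signalling, is a pericyte marker. Its signal was 10.26, 9.38, 9.39, 10.79 and 8.96 in 4w-WT and 9.41, 9.87, 10.34, 11.13 and 10.50 in 4w-KO. It was 8.29, 8.88, 8.81, 9.43 and 9.32 in 8w-WT and 9.33, 9.83, 9.57, 10.61 and 9.69 in the arrays labelled 8w-KO. The groups overlapped at both ages, by 8w-KO1 alone at 8 weeks, and the highest value of each 4-week group was that of a muscle-bearing array. Rgs5 differed by 0.86 at 8 weeks (95% confidence interval 0.15 to 1.57, adjusted p = 0.156, exact permutation p = 0.0159) and by 0.49 at 4 weeks (adjusted p = 0.441), and neither passed. Of 12 other mural and pericyte genes, 3 were higher and none lower at 8 weeks (4.94% and 1.65% of all genes), with a median difference of -0.00. Angpt1, for the vessel-stabilising ligand angiopoietin 1, differed the most of the 3, with means of 5.88 and 7.85 (difference 1.97, adjusted p = 1.63e-04). Abcc9, for a potassium channel subunit, differed by 1.0 (adjusted p = 0.0310) and Mcam, for an adhesion molecule, by 0.87 from a WT mean that was not above background (adjusted p = 0.0234). Without 8w-WT3, 8w-WT4 or 8w-KO2, 1 gene of the 12 was higher. Only 3 of the 12 had a mean above background in 8w-WT and 4 in 8w-KO.

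Vim encodes vimentin, the intermediate filament protein of mesenchymal cells. Its signal was 9.54, 8.34, 8.98, 10.50 and 8.50 in 4w-WT and 9.11, 8.96, 9.28, 10.46 and 10.90 in 4w-KO. It was 7.28, 7.89, 7.50, 7.01 and 8.39 in 8w-WT and 10.81, 10.73, 8.99, 9.00 and 10.77 in the arrays labelled 8w-KO. The 8-week groups did not overlap, and the highest 4-week values were those of the 3 muscle-bearing arrays. Vim was 5.45-fold higher in KO at 8 weeks, a difference of 2.45 (SE 0.47, 95% confidence interval 1.47 to 3.42, adjusted p = 2.10e-03, exact permutation p = 0.00794), and ranked 70 by size. The difference at 4 weeks was 0.57 (adjusted p = 0.542). The KO effect was 1.88 larger at 8 weeks (adjusted p = 0.140), and 2.17 larger without the muscle-bearing arrays (adjusted p = 0.0488).

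Des encodes desmin, the intermediate filament protein of muscle and a classic stellate cell marker in rodents. Its signal was 4.75, 4.00, 5.45, 12.15 and 4.65 in 4w-WT and 4.07, 4.92, 4.60, 10.54 and 10.36 in 4w-KO. It was 4.12, 3.96, 4.19, 4.00 and 4.05 in 8w-WT and 5.66, 4.74, 4.43, 5.34 and 4.57 in the arrays labelled 8w-KO. The high values were those of the muscle-bearing arrays, and without them no group mean of Des was above background (background 5.02 to 5.20 for the groups concerned). No fold is therefore given for Des. At 8 weeks the groups did not overlap, and the difference of 0.88 did not pass with 20 arrays (adjusted p = 0.781) but passed with 17 (adjusted p = 0.0372, where 5.37% of all genes were higher) and when the 8-week groups were fitted alone (adjusted p = 0.0263). Of 5 other intermediate filament genes none passed the limma test at 8 weeks with 20 arrays, with 1 higher at an unadjusted p below 0.05. Only 1 of the 5 had a mean above background in 8w-WT and 2 in 8w-KO. With 17 arrays Cryab, for a small heat shock protein that binds desmin, passed, higher by 1.89 from a WT mean that was not above background (adjusted p = 2.57e-04). Its difference with 20 arrays was also 1.89 (adjusted p = 0.340), and it was named after its values had been seen.

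**Figure D3:**
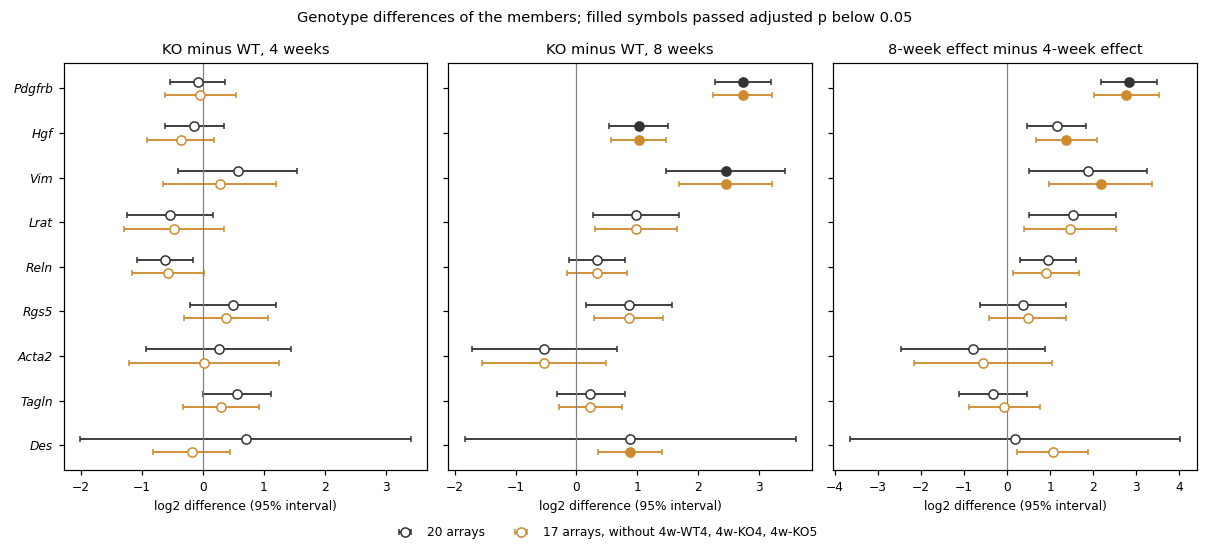
Log2 difference with its 95% confidence interval (x axis) of the 9 measured markers (y axis) for KO against WT at 4 weeks, at 8 weeks, and for the 8-week effect minus the 4-week effect, with 20 arrays in dark grey and 17 in orange; filled symbols had an adjusted p below 0.05. Pdgfrb, Hgf and Vim are filled at 8 weeks, Des is filled there with 17 arrays only, and Acta2 (-0.53) and Tagln (0.23) are open.

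Acta2 and Tagln encode smooth muscle alpha-actin and transgelin, contractile proteins that mark smooth muscle and the myofibroblast. The signal of Acta2 was 9.79, 8.41, 9.52, 10.08 and 6.53 in 4w-WT and 8.75, 8.07, 8.93, 10.89 and 8.97 in 4w-KO. It was 6.54, 7.14, 6.11, 7.81 and 8.30 in 8w-WT and 6.53, 6.95, 6.16, 7.13 and 6.50 in the arrays labelled 8w-KO. All 8w-KO arrays lay within the range of 8w-WT. Acta2 differed by -0.53 at 8 weeks (95% confidence interval -1.71 to 0.66, adjusted p = 0.680) and by 0.26 at 4 weeks (95% confidence interval -0.93 to 1.44, adjusted p = 0.859). The interval at 8 weeks leaves out rises above 0.66, below the differences of Pdgfrb, Vim and Hgf, but a p that misses the threshold does not show that the groups were alike.

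The signal of Tagln was 8.27, 7.42, 7.52, 7.83 and 6.93 in 4w-WT and 8.37, 7.58, 7.54, 8.54 and 8.73 in 4w-KO. It was 6.41, 7.08, 6.54, 6.74 and 6.67 in 8w-WT and 7.12, 7.33, 6.11, 7.03 and 7.02 in the arrays labelled 8w-KO. The groups overlapped at both ages. Tagln differed by 0.23 at 8 weeks (95% confidence interval -0.32 to 0.79, adjusted p = 0.700) and by 0.56 at 4 weeks (adjusted p = 0.220, and 0.30 without the muscle-bearing arrays). Of 15 other smooth muscle contractile genes none passed the limma test at 8 weeks with 20 arrays, with 2 higher and none lower at an unadjusted p below 0.05, and their median difference was -0.03. Only 8 of the 15 had a mean above background in 8w-WT and 9 in 8w-KO, which limits what that median can show. Without 4w-WT4 or 8w-KO3 alone, 1 of the 15 was higher. With 17 arrays Tpm1, for a tropomyosin, was higher at 8 weeks by 1.44 (adjusted p = 1.16e-04, against 0.275 with 20 arrays). Tpm1 (1.04, adjusted p = 9.51e-03) and Cald1, for caldesmon (0.80, adjusted p = 0.0250), were then higher at 4 weeks too, where none of the 15 passed the limma test with 20 arrays (3 higher and 2 lower at an unadjusted p below 0.05). Myh11, for the smooth muscle myosin heavy chain, was not above background in either 8-week group.

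Promoter letters are shown for Acta2, a contractile marker with no passing difference at 8 weeks, and for Vim, which was higher there. They cover the 250 bases before the annotated start, 5′ to 3′, from RefSeq on build GRCm38.p6. The Acta2 window is chr19:34255374-34255623 on the minus strand. Its capitals mark 2 matches to the CArG box, the binding sequence of serum response factor, with 1 inner base left free, at 84 to 75 and 34 to 25 bases before the start. The Vim window is chr2:13574061-13574310 on the plus strand. Its capitals mark the TATAAA match at 32 to 27 bases before the start.
Acta2: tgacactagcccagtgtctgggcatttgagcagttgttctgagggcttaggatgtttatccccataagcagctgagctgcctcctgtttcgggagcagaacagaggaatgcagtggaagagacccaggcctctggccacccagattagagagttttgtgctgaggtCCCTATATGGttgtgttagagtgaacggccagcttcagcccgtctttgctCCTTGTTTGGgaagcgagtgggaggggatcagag
Vim: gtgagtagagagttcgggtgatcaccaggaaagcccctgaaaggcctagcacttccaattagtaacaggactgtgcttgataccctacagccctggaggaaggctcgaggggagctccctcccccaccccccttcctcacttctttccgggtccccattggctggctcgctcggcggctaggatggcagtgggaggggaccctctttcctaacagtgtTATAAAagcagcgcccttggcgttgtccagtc
Windows were found for 7 of the 9 markers, 8 windows in all, and both strands were searched for 5 patterns. The strict CArG box was in none of the 8 windows and in 1.47% of 32851 mouse windows of this length, and the form with 1 inner base free, added after the windows had been seen, was in 8.59%. Among the markers that form matched only Acta2 and, once, Lrat. TATAAA was in 12.4% of all windows and among the markers only in Vim. CANNTG was in 66.2%, and TGANTCA in 6.75% and in no marker window. A match describes letters in these windows and shows no binding.

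Between 4 and 8 weeks the contractile markers fell in the arrays labelled KO. Acta2 fell by 2.47 (SE 0.57, adjusted p = 4.74e-03, exact permutation p = 0.00794) and Tagln fell by 1.23 (SE 0.27, adjusted p = 2.86e-03, exact permutation p = 0.00794), and the ages did not overlap for either. In WT the differences were -1.69 for Acta2 (adjusted p = 0.0693) and -0.91 for Tagln (adjusted p = 0.0358). The change in KO minus that in WT was -0.78 for Acta2 (adjusted p = 0.705) and -0.32 for Tagln (adjusted p = 0.749), so neither passed. Among all genes 7.85% rose and 6.78% fell between the ages in KO, and 4.69% fell with no overlap. Without the muscle-bearing arrays 4w-KO4 and 4w-KO5 and the WT array 4w-WT4, the falls were by 1.93 for Acta2 (adjusted p = 0.0289) and by 0.91 for Tagln (adjusted p = 0.0431), when 5.92% of all genes fell. The 15 other contractile genes included 3 that fell and 1 that rose in KO. Mylk, for myosin light chain kinase, rose by 2.06 (adjusted p = 1.58e-05), while Myl9, Myh11 and Actg2 fell, and none of those 3 passed without the muscle-bearing arrays (adjusted p = 0.0948, 0.221 and 0.0502). Without those arrays Mylk still rose, and 2 other genes fell, Tpm1 by 0.86 (adjusted p = 0.0170) and Cald1 by 0.68 (adjusted p = 0.0334). These 6 genes were named after their values had been seen.

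In WT 3 markers fell with age and none rose: Pdgfrb by 0.95, Vim by 1.56 (adjusted p = 0.0396) and Tagln by 0.91 (adjusted p = 0.0358), against 5.23% of all genes that fell and 3.71% that rose. At an unadjusted p below 0.05, 8 of the 9 were lower, but the share of all genes at that threshold is not given here. The median difference of the 9 was -0.91, beside 0.04 over all genes. The calls of Vim and Tagln were each lost in 7 of the 20 fits that left out 1 array, and without the muscle-bearing arrays their adjusted p were 0.0646 and 0.0606, when 4.4% of all genes fell. The arrays whose loss ended both calls were 4w-WT1, 4w-WT3, 4w-WT4, 8w-WT1, 8w-WT3 and 8w-WT4; 8w-WT2 ended that of Vim alone and 8w-WT5 that of Tagln alone. Acta2 differed by -1.69 in WT (adjusted p = 0.0693), and it passed without 4w-WT5, the array with the lowest 4-week value (-2.27, adjusted p = 3.82e-03), without 8w-WT5 (-1.97, adjusted p = 0.0454) and without 4w-KO4 (adjusted p = 0.0428).

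**Figure D4:**
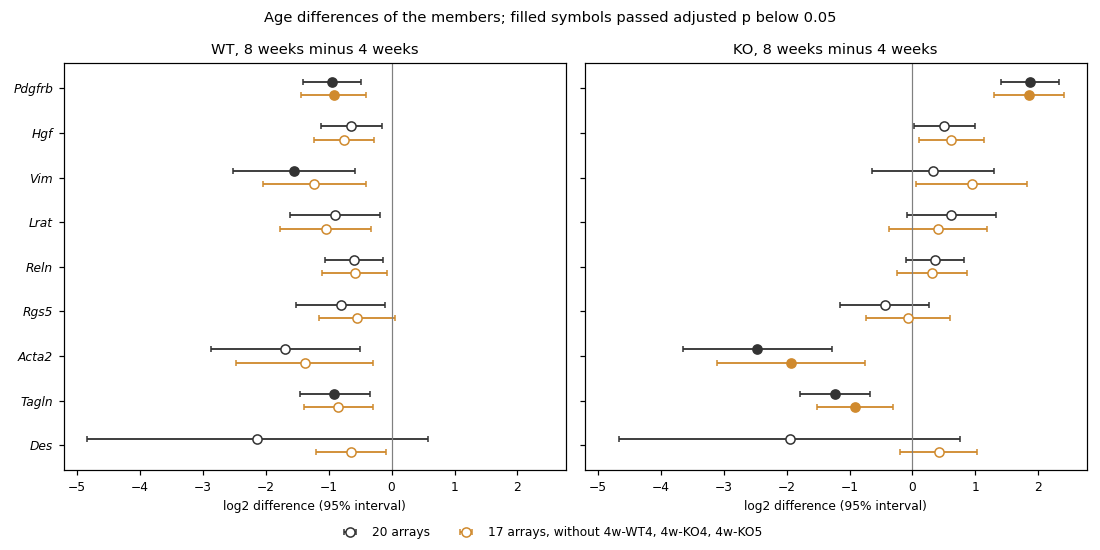
Log2 difference with its 95% confidence interval (x axis) between 8 and 4 weeks of the 9 measured markers (y axis) in WT and in KO, with 20 arrays in dark grey and 17 in orange; filled symbols had an adjusted p below 0.05. In KO Pdgfrb lies to the right of 0 at 1.87 and Acta2 and Tagln to the left at -2.47 and -1.23, while in WT no marker lies to the right of 0.

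Of 23 other genes of quiescent stellate cells, 10 were higher and 2 were lower at 8 weeks (4.94% and 1.65% of all genes). Their median difference was 0.58. In WT 6 of the 23 fell between 4 and 8 weeks and none rose (5.23% and 3.71% of all genes). In KO 5 rose and 2 fell (7.85% and 6.78% of all genes). Tcf21, for a transcription factor of stellate cells and fibroblasts, had a signal of 5.90, 5.63, 5.04, 6.59 and 5.89 in 8w-WT and 8.70, 8.02, 7.63, 7.70 and 8.52 in the arrays labelled 8w-KO. The groups were well apart, with a difference of 2.30 (adjusted p = 4.40e-06), and the KO effect was 2.53 larger than at 4 weeks (adjusted p = 4.02e-04). Cygb, for the oxygen-binding protein cytoglobin of stellate cells, differed by 2.40 (means 6.83 and 9.23, adjusted p = 4.49e-05), and the small matrix proteoglycan genes Dcn and Prelp differed by 1.53 (adjusted p = 2.75e-05) and 1.52 (adjusted p = 6.09e-04). The lower genes, named after their values had been seen, were Fcna (-0.96, adjusted p = 0.0114) and Hhip (-0.89, adjusted p = 0.0332), for a ficolin and a hedgehog-binding protein. Leaving out 8w-WT3, 8w-WT4, 8w-WT5, 8w-KO1, 8w-KO2 or 8w-KO5 left 1 lower gene. At 4 weeks 1 gene of this list was lower and none was higher (5.48% and 4.7% of all genes). The lower gene was Colec11, for a collectin, and it too was named after its values had been seen. That call was lost without the muscle-bearing arrays (adjusted p = 0.0712) and in 8 of the 20 fits that left out 1 array, those without 4w-WT3, 4w-WT4, 4w-WT5, 8w-WT2, 8w-WT3, 4w-KO1, 4w-KO2 or 4w-KO3.

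Of 25 genes of activated stellate cells and myofibroblasts other than the members, 12 were higher and none was lower at 8 weeks (14 and none with 17 arrays). The shares of all genes were 4.94% higher and 1.65% lower (5.37% and 1.79% with 17 arrays). The median difference of the 25 was 0.90. Lum, for the collagen-binding proteoglycan lumican, had a signal of 8.87, 10.18, 8.85, 9.64 and 9.88 in 8w-WT and 14.33, 14.19, 11.75, 12.75 and 13.93 in the arrays labelled 8w-KO. It differed by 3.91 (adjusted p = 2.72e-06), with no overlap. Col3a1, for a fibrillar collagen chain, was at 7.10, 8.78, 7.40, 7.84 and 8.97 in 8w-WT and at 11.74, 12.78, 10.14, 10.50 and 11.77 in the arrays labelled 8w-KO, a difference of 3.37 (adjusted p = 1.56e-04). The 8w-KO values of Col3a1 lay in the range of the 4-week arrays, 10.53 to 13.12, or just below it, while the 8w-WT values all lay under them. Bgn and Sparc, for matrix proteins that bind collagen, differed by 2.04 (adjusted p = 2.29e-05) and 2.74 (adjusted p = 2.27e-04). At 4 weeks 3 genes of the list were higher and 1, Fn1 for fibronectin, was lower by 0.72 (4.7% and 5.48% of all genes). Without the muscle-bearing arrays none was higher there. Without any 1 of the 4w-WT arrays or of the arrays 4w-KO2 to 4w-KO5, 0 or 1 gene of the list was higher at 4 weeks. In WT 7 of the 25 fell between 4 and 8 weeks and none rose (5.23% and 3.71% of all genes), with a median difference of -0.50. In KO 4 rose and 3 fell (7.85% and 6.78% of all genes), with a median difference of 0.07. Sparc was among those that fell in KO, but not with 17 arrays, when 4 rose and 1 fell. The KO effect was larger at 8 weeks than at 4 weeks for 4 of the 25, and smaller for none (3.05% of all genes differed).

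For the lists that follow, the shares of all genes at 8 weeks were 4.94% higher and 1.65% lower (5.37% and 1.79% with 17 arrays). Of 21 genes of the TGF-beta axis 12 were higher and none was lower at 8 weeks (13 and none with 17 arrays), with a median difference of 0.74. The higher genes included Eng, for the co-receptor endoglin (difference 1.10, adjusted p = 2.37e-03), and Bambi, for a decoy receptor, Thbs1, for the latency-releasing matrix protein thrombospondin 1, and Ltbp3, for a latent TGF-beta binding protein. The WT means of Bambi, Thbs1 and Ltbp3 were not above background. The fits that left out 1 array gave 9 to 15 higher genes. Of 18 genes of portal fibroblasts and the mesothelium, 4 were higher and none was lower (5 and none with 17 arrays), with a median difference of 0.24. They were Gpm6a (difference 2.44, adjusted p = 0.001), Dpt (3.48, adjusted p = 2.25e-03) and Cd34 (2.65, adjusted p = 3.28e-03), and Fbln1 from a WT mean that was not above background. The counts at 8 weeks of the lists of quiescent, activated, mural, portal and contractile genes were the same when array medians were set equal or quantile normalization was repeated. The TGF-beta and HGF counts dropped to 10 and 3 higher genes with medians set equal, and the retinoid list then had 1 lower gene.

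**Figure D5:**
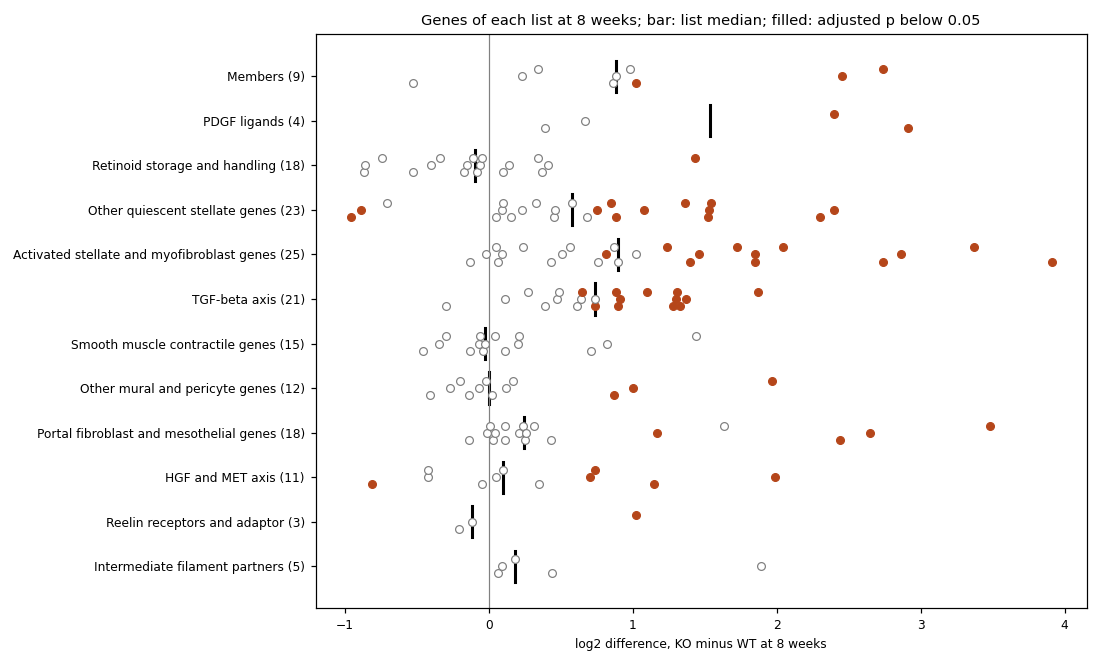
Log2 difference between KO and WT at 8 weeks (x axis) of each gene of the 9 measured markers and of the 11 related lists (y axis, number of genes in brackets); each point is a gene, filled points had an adjusted p below 0.05, and black bars are list medians. Filled points to the right number 10, 12 and 12 in the lists of quiescent, activated and TGF-beta genes, and 4.94% of all genes were higher. None of the smooth muscle contractile genes is filled in this fit of 20 arrays. Of those 15 contractile genes, 8 in 8w-WT and 9 in 8w-KO had a mean above background.

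Markers of other liver cells were examined in the same arrays at 8 weeks, when 4.94% of all genes were higher and 1.65% lower. Of 7 cholangiocyte markers 6 were higher, and their mean level ran from 4.87 to 5.78 in 8w-WT and from 6.79 to 9.22 in the arrays labelled 8w-KO. Epcam, the epithelial adhesion molecule of bile duct cells, was not above background in 8w-WT (5.01 ± 0.72) and stood at 9.01 ± 1.23 in 8w-KO (SD, n = 5 each). Of 7 Kupffer cell and macrophage markers 4 were higher (Adgre1, Csf1r, Trem2 and Gpnmb), with mean levels over the 7 of 7.06 to 7.25 and 6.98 to 7.85. Of the other 3, 2 were lower at an unadjusted p below 0.05. With array medians set equal 3 of the 7 were higher and 2 lower, and 2 were higher without 8w-KO1 or 8w-KO2. Without 8w-WT5 or 8w-KO1, 1 of the 7 was lower, and without 8w-KO4 3 were higher and 2 lower. Of 9 endothelial markers 1 was higher, Pecam1, and it was lost with array medians set equal or without 8w-WT1, 8w-WT2, 8w-WT3, 8w-WT4, 8w-KO1, 8w-KO4 or 8w-KO5. Of 5 mesothelial markers 1 was higher, Gpm6a, which also stands in the list of portal and mesothelial genes. No hepatocyte marker of 9 and no skeletal muscle marker of 16 passed the limma test, with none at an unadjusted p below 0.05 in either list, and 1 of 6 T and NK cell markers was lower. The part of these other cells in the marker differences was not tested.

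The arrays labelled 8w-KO also differed among themselves. Array 8w-KO3 had the lowest signal of its group for 7 of the 9 markers, and its mean over the cholangiocyte markers was also the lowest of the group, at 6.79. It was the array that overlapped with 8w-WT for Hgf and for Pdgfc. The 3 calls of Pdgfrb, Hgf and Vim at 8 weeks passed in each of the 20 fits that left out 1 array.

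Across the 17 arrays without muscle, the genes whose level ran most like that of a marker were listed as a description, from 10796 to 10797 genes above background. These arrays share their groups, so a high Pearson r partly restates the group differences, and r over deviations from the group means is given beside it. For Pdgfrb the closest genes were Olfml3 (r = 0.97, 0.81 within groups), Mmp2 (0.97, 0.90 within groups), for a matrix metalloproteinase, and Lum (0.96, 0.81 within groups). For Vim they were Col1a1, Ccdc80 and Mfge8, each with r = 0.96 and with 0.90, 0.89 and 0.86 within groups. For Hgf they were Epha7 (0.87), Fbln5 (0.87) and Adamts5 (0.86), with 0.65, 0.68 and 0.88 within groups. For Tagln they were Mcm2 (0.91), Mcm4 (0.88) and Mcm3 (0.87), which encode subunits of the replicative helicase, with 0.79, 0.75 and 0.83 within groups. For Acta2 they were Tmem41b, Uba7 and Cyp3a16 (0.84 to 0.88), for Rgs5 Pakap, Stom and Tyrobp (0.82 to 0.86), and for Reln Trim2, Adh1 and Rrp1 (0.81 to 0.85). For Lrat they were Rspo3, Prcp and Mrc1 (0.80 to 0.81), and for Des, which was not above background on these arrays, Armcx1, Hs2st1 and Tbc1d1 (0.78 to 0.89). No gene was among the 3 closest of more than 1 marker, so Pdgfrb, Vim and Hgf shared none with each other either. Lists of 3 from so many genes seldom overlap, so this does not tell the markers apart.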

How the data were processed

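RNA from 20 mouse livers was measured on Clariom S Mouse arrays. The deposited values were log2 signals that the authors made with RMA in Affymetrix Expression Console, per the submitters' processing notes, with versions and annotation build not given in the sources used here. No scaling was added. The lowest value was 2.32 and the highest 19.85. Each array had between 254 and 288 values over 16, where a scanner's log2 range ends, so differences are on the deposited scale. Of 22206 features 19572 had a single symbol, and the brightest feature was kept for each of 55 symbols with several, which left 19505 genes. Limma 3.58.1 in R 4.3.3 was fitted with 4 group means (16 residual degrees of freedom), with Benjamini-Hochberg adjustment over 19505 genes and a threshold of 0.05. The fit was checked on simulated data. Exact permutation tests of 5 against 5 arrays were two-sided, over 252 splits. The background level was the 95th percentile of the group means of 1412 olfactory and vomeronasal receptor genes (5.01, 5.04, 5.20 and 5.02 in 4w-WT, 4w-KO, 8w-WT and 8w-KO). The members and gene lists were chosen with earlier results of these data known. Of 220 listed genes 207 were measured. The text names every member, and of each list up to 4 genes with the smallest adjusted p at 8 weeks and then at 4 weeks, listed ligands and receptors, and for each member the 3 genes with the most similar level. Arrays of a group correlated at 0.976 to 0.990, and none was a copy of another. The number of arrays limits the precision. The labels name separate mice, so p-values measure the spread between mice. Alternatives were other scaling, array weights, a replicate block, fits of fewer arrays, other filters, a raised floor and a stricter threshold.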

Additional observations from a re-analysis of the deposited data

Results flagged for a closer look

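Single arrays stood far from the others of their group for 3 of the 9 measured markers, in 4 of 36 groups checked with Dixon's test at the 95% level, which marks about 1 in 20 groups by chance. Des was at 12.15 on 4w-WT4, an array with skeletal muscle RNA. Reln was at 6.03 on 8w-WT1, below 6.90 to 7.13 on the other 8w-WT arrays. Reln was at 6.53 on 8w-KO5, below 7.16 to 7.40 on the other 8w-KO arrays. Tagln was at 6.11 on 8w-KO3, below 7.02 to 7.33 on the other 8w-KO arrays.

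The KO effect on Pdgfrb differed between the ages by 2.82 (adjusted p = 5.41e-05), from -0.08 at 4 weeks to 2.74 at 8 weeks. The comparison of effects shares its arrays with the 8-week comparison.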

How the results depend on the processing

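Over 11 alternatives other than leaving out 1 array, 468 of 486 differences of single markers kept their direction and their side of the threshold, and over 20 fits that left out 1 array 865 of 900 did. The 8-week calls of Pdgfrb, Hgf and Vim passed under all of them. Without 4w-WT4, 4w-KO4 and 4w-KO5 the markers called were 3 for the difference of effects and 1 for age in WT, and Des turned to -0.18 at 4 weeks and to 0.42 for age in KO. With array quality weights 1 marker was called at 4 weeks (Reln, -0.64, adjusted p = 0.0485) and 2 for the difference of effects, where Des turned to -0.0362. With values raised to the background level 1 was called for age in WT, and Des turned to -0.49 in the difference of effects. At an adjusted p below 0.01, 1 marker was called for age in WT, and all genes called were 983 at 4 weeks, 668 at 8 weeks, 140 for the difference of effects, 926 for age in WT and 1528 for age in KO. Leaving out 1 array gave 0 to 1 markers at 4 weeks, 3 at 8 weeks, 1 to 2 for the difference of effects (385 to 747 of all genes), 1 to 4 for age in WT and 3 to 4 for age in KO. It turned Acta2 at 4 weeks (-0.33 to 0.56), Des at 4 weeks (-0.21 to 2.19) and Des in the difference of effects (-1.30 to 1.10). The cause of these changes was not tested.

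Replicate numbers are shared between groups, but same-numbered arrays did not deviate together in every pair. The correlations of their deviations ran from -0.15 to 0.48 between 4w-WT and 4w-KO. The value of 0.48 was that of 4w-WT4 and 4w-KO4, which both carried skeletal muscle RNA, and the next highest was 0.32. Between 8w-WT and 8w-KO the correlations ran from -0.18 to 0.14. With the replicate number as a block, 3 markers were called at 8 weeks and the Vim fall in WT between the ages (-1.56) had an adjusted p of 0.0510. No other call of a marker changed. The array count limits the precision, and for Des the signal over background does.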
